A study of Mus musculus with 14 samples.

Results

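Described here are the stretches of chromatin at which dimethylation of histone H3 lysine 4 (H3K4me2) was called after both ways of disabling MLL1 and in neither control. Chosen by the calls themselves, they were taken from the H3K4me2 peaks of MM-401-treated cells on the 19 autosomes with a width of at least 200 bp. A peak was kept when it shared at least 1 bp with a 4OHT H3K4me2 peak and no base with a DMSO or EtOH H3K4me2 peak. This left 777 of 67346 peaks, or 1.15%, here called gained peaks. Because the presence or absence of H3K4me2 calls selected these peaks, it describes the set and was not tested.

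MAF9 cells, mouse bone marrow cells transduced with the fusion gene MLL-AF9, received 20 µM MM-401 or its solvent DMSO. MLL1 flox/flox, ER-cre+/- bone marrow cells, also transduced with MLL-AF9, received 400 nM 4-hydroxytamoxifen (4OHT) or its solvent ethanol (EtOH). Both treatments lasted 2 days, and all cells grew in medium with 15% serum and 10 ng/ml interleukin-3. The 14 samples held 4 H3K4me2, 4 WDR5 and 2 MLL1 ChIP-seq libraries and 4 inputs. There was 1 library per condition and antibody, so no difference between conditions has a replicate check and no p-value is given. The cell population and the treatment change together between the MM-401 and 4OHT experiments, and DMSO and EtOH are each the control of 1 experiment. MLL1 was not mapped in the floxed cells, so the loss of MLL1 under 4OHT could not be checked in these lists, and the labels do not say whether either population was 1 clone.

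H3K4me2 marks promoters and enhancers, and stretches of it often flank or widen around sites where transcription factors hold chromatin open. MLL1 is one of several related methyltransferases that place methyl groups on this lysine, and its fusion to AF9 loses the catalytic end of the protein. WDR5 is a core subunit shared by the MLL1 complex and its relatives. MM-401 blocks the contact between MLL1 and WDR5, whereas 4OHT switches on the Cre recombinase that cuts out the floxed MLL1 alleles.

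For H3K4me2, 105136 peaks were listed in DMSO and 92025 with MM-401, against 100898 in EtOH and 91305 with 4OHT. Both treated lists were therefore shorter than their controls. The WDR5 lists held 14481, 17273, 34587 and 41054 peaks in the same order, and the MLL1 lists 8525 in DMSO and 27345 under MM-401. Each list gives positions without a height or a read count, so the depth is unknown, and an absent peak is a peak that was not called.

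To place the gained peaks among all MM-401 H3K4me2 peaks, each peak was sorted by the other H3K4me2 lists that held it. Most peaks, 50982 or 75.7%, were called in all 4 lists. A total of 6164 peaks, or 9.15%, were absent from DMSO, and 3394, or 5.04%, were in neither control, and 777 of these, or 22.9%, were called under 4OHT. The remaining 2617 were called under MM-401 only. Over all MM-401 peaks the share called under 4OHT was 83.1%. As many as 870 MM-401 peaks, or 1.29% (95% Wilson interval 1.21 to 1.38%), were shared with EtOH and with neither DMSO nor 4OHT. This class joins MM-401 to the control of the other experiment and was slightly larger than the gained set (1.15%, 1.08 to 1.24%). Counted from the 4OHT side, 865 of 65301 peaks, or 1.32%, met the same rule. The opposite class, DMSO peaks shared with EtOH and absent under both treatments, held 2556 of 76705 peaks, or 3.33%, and is called lost peaks below.

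The gained peaks were narrow. Their median width was 250 bp, with quartiles of 225 and 325 bp and a highest value of 1225 bp, against a median of 825 bp over all 67346 peaks and 1150 bp for peaks in all 4 lists. Peaks called under MM-401 only also had a median of 250 bp. In total 547 gained peaks were 200 to 300 bp wide, 182 were wider but not over 500 bp, 44 were over 500 and up to 1000 bp, and 4 were over 1000 bp. Exactly 200 bp, the narrowest width allowed, was found for 177. Just inside the width limit, 177 of 3784 peaks of 200 bp met the overlap rule, or 4.68%. Just outside it, 205 of 4044 peaks of 175 bp did, or 5.07%. Together the gained peaks covered 230 kb, or 0.253% of the bases under MM-401 H3K4me2 peaks.

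To ask whether the gained peaks extended H3K4me2 present in the controls or arose at new sites, the distance to the nearest DMSO or EtOH peak was measured. Most lay beside control H3K4me2. The median gap was 125 bp, with quartiles of 25 and 650 bp, and 602 of the 777, or 77.5% (74.4 to 80.3%), were less than 1 kb from a control peak. Another 81, or 10.4% (8.47 to 12.8%), were 1 to 5 kb away. The remaining 94, or 12.1% (9.99 to 14.6%), lay at least 5 kb away and are called new sites below. No base separated 104 gained peaks from a control peak. A further 203 lay less than 100 bp away. Just outside the limit, 123 MM-401 peaks that were also in 4OHT shared 25 bp with a control peak. The peaks called under MM-401 only were farther from control H3K4me2, with a median gap of 525 bp, 55.4% within 1 kb and 30.2% at 5 kb or more. This contrast partly follows from the rule, which asks for a 4OHT peak over the gained peaks only. At 273 gained peaks that 4OHT peak reached into a control peak, and all 273 lay within 1 kb of control H3K4me2. Among the other 504, 65.3% lay within 1 kb and 18.7% were new sites.

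**Figure D1:**
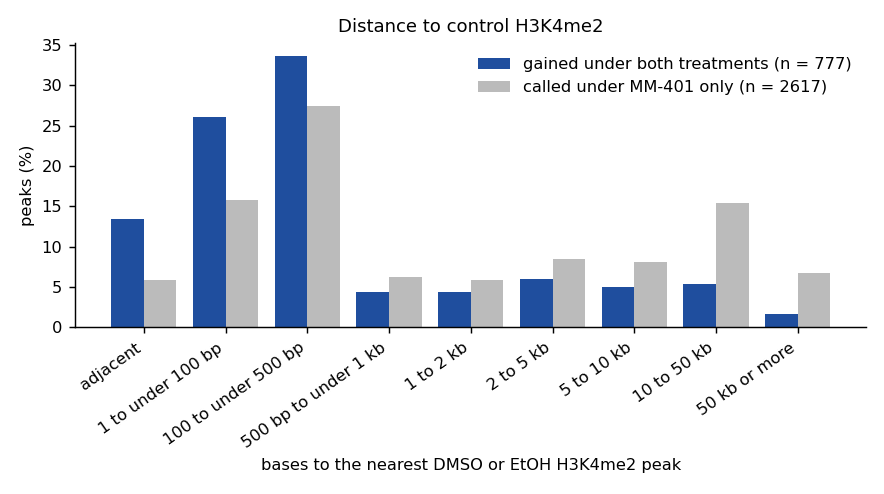
Share of peaks in percent (bars, from 0) by the number of bases to the nearest DMSO or EtOH H3K4me2 peak, for the 777 gained peaks (blue) and the 2617 peaks called under MM-401 only (grey). The blue bars are higher below 500 bp, as in the bin from 100 to under 500 bp with 33.6% against 27.5%, and the grey bars are higher from 500 bp on, as in the 10 to 50 kb bin with 5.41% against 15.4%.

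The nearest control peak belonged to DMSO for 361 gained peaks and to EtOH for 371, and both were equally near for 45. Both controls had a peak within 1 kb of 428 gained peaks, or 55.1%. DMSO alone did so for 88 and EtOH alone for 86. The gained peaks were thus split about evenly between the controls. On both sides, control H3K4me2 within 1 kb was found for 206 gained peaks, which is 34.2% of the 602. These peaks sat in gaps between control peaks.

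Being next to a control peak did not always mean that the control peak was still called. Overlapping DMSO and EtOH peaks were merged into 116336 control domains. The domain nearest to each of the 602 adjoining gained peaks was called under MM-401 for 384, or 63.8% (59.9 to 67.5%), and under 4OHT for 445, or 73.9% (70.3 to 77.3%). Over all control domains these shares were 53.1% and 51.5%. The 4OHT share, and the counts in both treated lists below, partly follow from the rule. For 273 of the 602 the 4OHT peak over the gained peak itself overlapped a control peak. For 340 of the 602 the nearest domain was called in both treated lists. Nearest domains that were called under MM-401 had a median width of 825 bp, and those that were not had a median of 150 bp. When any domain within 1 kb was counted, 443 of 602, or 73.6% (69.9 to 77.0%), had one that both treated lists held. For 57, or 9.47% (7.38 to 12.1%), no domain within 1 kb was called in either treated list, so at these 57 the controls and the treated cells had calls at different positions.

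**Figure D2:**
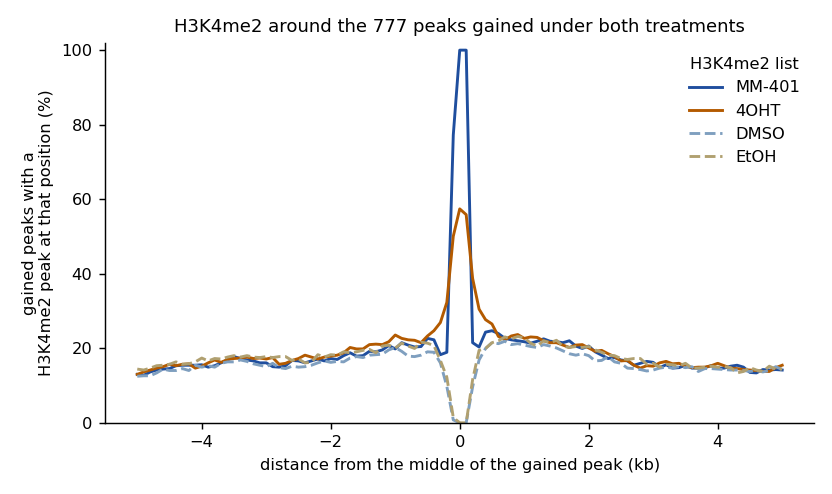
Percent of the 777 gained peaks with an H3K4me2 peak of each list at a given distance in kb from the middle of the gained peak, every 100 bp from 5 kb before to 5 kb after it. The rule fixes the centre, where MM-401 stands at 100% and DMSO and EtOH at 0%, with 4OHT at 57.4%; at 1 kb after the centre all 4 lines lie between 20.8% and 22.8%.

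The flanks of the gained peaks held H3K4me2 calls in all lists. At 1 kb before the centre the share was 20.2% for DMSO, 19.8% for MM-401, 20.1% for EtOH and 23.6% for 4OHT. At 5 kb before the centre the 4 shares had fallen to between 12.5% and 14.4%. Another MM-401 H3K4me2 peak lay within 1 kb of 539 gained peaks, or 69.4%. This was so for 498 of the 602 peaks near control H3K4me2, or 82.7%, and for 24 of the 94 new sites, or 25.5%.

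The 4OHT call over a gained peak often covered a part of it. The median shared length was 150 bp, the median share of the gained peak covered was 50%, and 108 gained peaks, or 13.9%, were covered whole. Fewer than 50 bp were shared at 51. In 273 cases, or 35.1% (31.9 to 38.6%), the 4OHT peak reached into a control peak as well, an EtOH peak in 220 and a DMSO peak in 214. All 273 were among the 602 within 1 kb of control H3K4me2. Their 4OHT peaks had a median width of 600 bp. The other 504 gained peaks had 4OHT peaks free of control overlap, with a median width of 200 bp. Thus the overlap rule holds for the MM-401 peak, and for 504 of the 777 also for its 4OHT partner.

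The 94 new sites were found on all 19 autosomes, with 11 on chromosome 1, and 8 had another new site within 100 kb. Their median width was 325 bp, and for the 602 peaks within 1 kb of control H3K4me2 it was 250 bp. Of the 94, 55 were at least 10 kb and 13 at least 50 kb from control H3K4me2. The farthest was also the widest gained peak. It covered 1225 bp on chromosome 16 (46496551 to 46497775, mm9) and lay 473625 bp from the nearest control H3K4me2 peak. Under 4OHT a peak of 125 bp was called inside it, and no WDR5 or MLL1 peak of any list lay over it. On chromosome 8, peaks at 8239651 to 8239850 and at 103157626 to 103157850 were 419700 and 365150 bp from control H3K4me2. A peak of 900 bp on chromosome 1 (150750351 to 150751250) was 347275 bp from control H3K4me2, had a 4OHT peak of 100 bp inside it, and lay 75 bp from an MM-401 WDR5 peak. The fifth in this order, on chromosome 7 (77479601 to 77479825), was 308825 bp from a DMSO peak and 1064600 bp from an EtOH peak. All 5 had no WDR5 and no MLL1 peak over them.

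Among the 10 widest gained peaks, 4 were new sites and 6 lay closer than 5 kb to control H3K4me2. Besides the widest and the 900 bp peak on chromosome 1, the new sites were a peak of 975 bp on chromosome 13 (69803126 to 69804100), 49425 bp away, and a peak of 850 bp on chromosome 4 (9104776 to 9105625), 6175 bp away. The second in width was a peak of 1050 bp on chromosome 2 (84974726 to 84975775). It lay 325 bp from an EtOH peak and 1450 bp from a DMSO peak, and held an MM-401 WDR5 peak of 100 bp. A peak of 1025 bp on chromosome 12 (77917226 to 77918250) was 2075 bp from DMSO H3K4me2 and shared 525 bp with 4OHT. A peak of the same width on chromosome 18 lay 350 bp from DMSO H3K4me2 and 684225 bp from EtOH H3K4me2. Smaller widths of 950 bp on chromosome 4 (24663551 to 24664500) and of 900 bp on chromosome 3 (149061451 to 149062350) were found 1750 and 1900 bp from control H3K4me2. The tenth, 825 bp on chromosome 1 (151914801 to 151915625), was 1350 bp from DMSO H3K4me2 and carried WDR5 peaks under MM-401 and in EtOH. It was the widest gained peak with WDR5 in a control list.

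**Figure D3:**
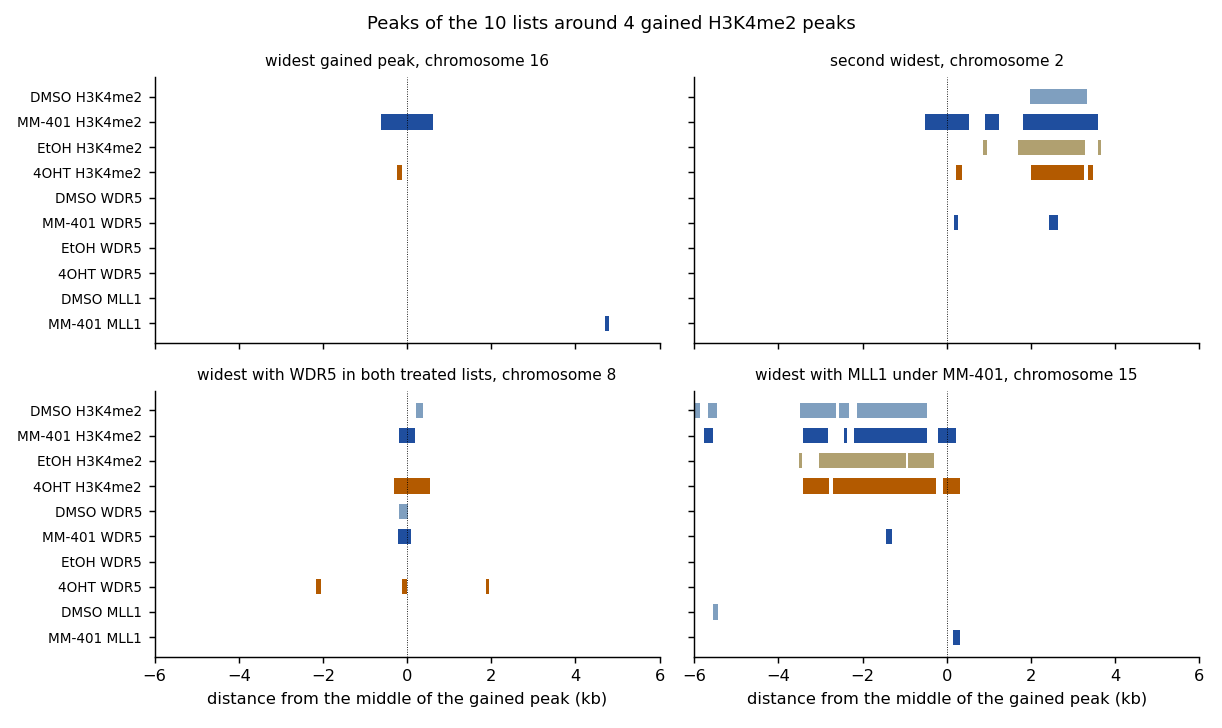
Peaks of the 10 lists (bars, 1 row per list) within 6 kb of the middle of 4 gained peaks, at distance 0 kb. The widest, on chromosome 16, has no control H3K4me2 bar in view; the second widest, on chromosome 2, lies beside a narrow EtOH bar and more than 1 kb from a domain that all 4 H3K4me2 rows hold; the one on chromosome 8 has WDR5 bars in DMSO, MM-401 and 4OHT; the one on chromosome 15 lies beside a wide domain and has an MLL1 bar under MM-401.

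WDR5, the shared core subunit, was called at few gained peaks, and at more of them in the treated than in the control lists. DMSO WDR5 peaks lay over 7 of the 777, or 0.901% (0.437 to 1.85%), and MM-401 WDR5 peaks over 26, or 3.35% (2.29 to 4.86%). EtOH WDR5 peaks lay over 6, or 0.772% (0.354 to 1.67%), and 4OHT WDR5 peaks over 23, or 2.96% (1.98 to 4.40%). Over all 67346 peaks the shares were 16.5%, 18.1%, 19.8% and 20.6% in the same order. The number of gained peaks with WDR5 was 3.71 times as high under MM-401 as in DMSO, whereas the whole WDR5 list was 1.19 times as long. It was 3.83 times as high under 4OHT as in EtOH, whereas the list was again 1.19 times as long. These ratios depended on the rule and on width. With absence required in DMSO alone they were 1.77 and 1.31, and with absence required in EtOH alone 1.63 and 1.41. At the 58 gained peaks of at least 500 bp, WDR5 was called at 0 in DMSO and 5 under MM-401, but at 4 in EtOH and 1 under 4OHT, so the direction turned for 4OHT. Under MM-401 20 gained peaks had WDR5 that DMSO lacked, 6 had it in both and 1 in DMSO alone. Under 4OHT 20 had WDR5 that EtOH lacked, 3 had it in both and 3 in EtOH alone. The ratios of 3.71 and 3.83 rest on 7 and 6 control peaks. At the 104 gained peaks that adjoined a control peak, WDR5 was called at 2, both under 4OHT, and at the 123 peaks just outside the limit it was called at 2 for DMSO, 1 for MM-401, 1 for EtOH and 0 for 4OHT. When WDR5 peaks within 500 bp were counted, the numbers were 30 and 56 for DMSO and MM-401 and 34 and 61 for EtOH and 4OHT, which lowered the ratios to 1.87 and 1.79.

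WDR5 was called under both treatments at 3 gained peaks, of the 26 under MM-401 and the 23 under 4OHT. For this and the other combinations of lists below, the share over all H3K4me2 peaks was not counted. WDR5 of any list lay over 48 gained peaks, or 6.18%, and 36 of these had it in treated cells and in no control. Of the 48, 17 had it under MM-401 alone, 18 under 4OHT alone and 1 under both treatments without a control. The widest of the 3, 375 bp on chromosome 8 (47461451 to 47461825), also had a DMSO WDR5 peak, and was 25 bp from DMSO H3K4me2 and 42575 bp from EtOH H3K4me2. The next, 225 bp on chromosome 15 (66144201 to 66144425), carried WDR5 in all 4 lists and lay 550 bp from EtOH H3K4me2. The third, 225 bp on chromosome 18, had WDR5 under both treatments and in neither control, and lay 325 bp from DMSO H3K4me2. The WDR5 peaks over gained peaks had median widths of 200, 175, 175 and 150 bp in DMSO, MM-401, EtOH and 4OHT. Some were wider than the gained peak they touched, as a 4OHT WDR5 peak of 425 bp over a gained peak of 225 bp on chromosome 12. WDR5 peaks lay fully inside the gained peak in 3 of 7, 9 of 26, 0 of 6 and 8 of 23 cases.

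Other H3K4me2 peaks were counted the same way. Peaks called under MM-401 only had WDR5 at 33 of 2617 in DMSO and at 66 under MM-401, a ratio of 2, and at 34 in EtOH and 38 under 4OHT, a ratio of 1.12. Peaks in all 4 lists had ratios of 1.08 and 1.03. The lost peaks held WDR5 at 17 of 2556 in DMSO and 20 under MM-401, and at 45 in EtOH and 39 under 4OHT. The share of gained peaks with WDR5 exceeded that of lost peaks by 2.56 percentage points under MM-401 (95% Newcombe interval 1.43 to 4.10) and by 1.43 points under 4OHT (0.309 to 2.93). Against the peaks called under MM-401 only, the gained peaks had 4OHT WDR5 more often, by 1.51 points (0.392 to 3.0), while the interval for MM-401 WDR5, a difference of 0.824 points, ran from -0.426 to 2.43. These intervals cover the counting of peaks, not the spread between cultures. By choice the lost peaks have no H3K4me2 call under either treatment, and the peaks called under MM-401 only have none under 4OHT. How the choice of peaks by a call, or its absence, in a treated H3K4me2 library, and that library's depth, bear on these counts was not tested.

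Since wide H3K4me2 peaks hold WDR5 more often, the sets were also compared at 200 to 300 bp, the width of 547 gained peaks. In DMSO 0.366% of these had WDR5, against 1.74% of the 5334 peaks of that width in all 4 lists, a difference of -1.38 points (-1.85 to -0.369). In EtOH the shares were 0.183% and 2.29%, a difference of -2.10 points (-2.57 to -1.18). Under MM-401 they were 2.01% and 2.12%, and under 4OHT 2.74% and 2.70%. Those differences of -0.108 points (-1.09 to 1.49) and 0.0426 points (-1.13 to 1.82) had intervals on both sides of 0. At this width control WDR5 was called less often at the gained peaks than at the peaks of all 4 lists. These control shares rest on 2 of 547 gained peaks for DMSO and 1 of 547 for EtOH. Under the treatments no difference was detectable, with bounds no farther from 0 than 1.82 points. By choice the gained peaks have no control H3K4me2 call, and the peaks of all 4 lists have one in both controls. How this choice bears on the control WDR5 shares was not tested. DMSO WDR5 was similarly rare in the other narrow sets, at 0.796% of peaks called under MM-401 only and 0.563% of lost peaks, with differences of -0.430 points (-0.990 to 0.575) and -0.197 points (-0.766 to 0.797). EtOH WDR5 was at 1.29% and 1.56% of these sets, with differences of -1.11 points (-1.72 to -0.171) and -1.38 points (-2.13 to -0.397). Over 500 and up to 1000 bp the direction against these 2 sets turned. EtOH WDR5 was there at 3 of 44 gained peaks, 0 of 101 called under MM-401 only and 4 of 244 lost peaks. These differences were 6.82 points (1.04 to 18.2) and 5.18 points (0.0557 to 16.6). Over 300 and up to 500 bp the DMSO difference from peaks in all 4 lists was -1.62 points (-3.28 to 1.94), on both sides of 0, and the EtOH difference was -4.09 points (-5.09 to -1.22).

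**Figure D4:**
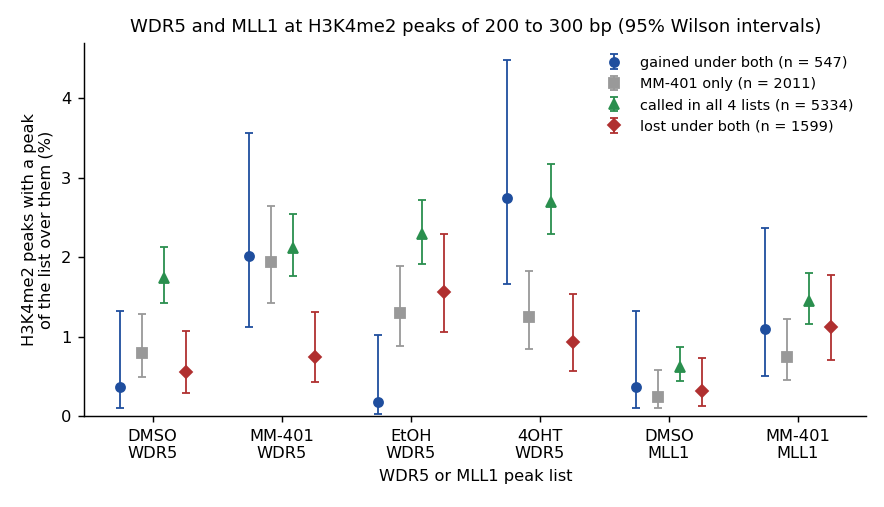
Percent of H3K4me2 peaks of 200 to 300 bp with a WDR5 or MLL1 peak over them (points, with 95% Wilson intervals as bars), by WDR5 or MLL1 list, for gained peaks (blue), peaks called under MM-401 only (grey), peaks in all 4 lists (green) and lost peaks (red). For WDR5 the blue points are at 0.366% in DMSO and 0.183% in EtOH, below the green points, and at 2.01% under MM-401 and 2.74% under 4OHT, next to them.

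WDR5 at the gained peaks was next split by the distance from control H3K4me2. At the 602 peaks within 1 kb it was called at 5 for DMSO and 17 for MM-401, and at 4 for EtOH and 21 for 4OHT. At the 81 peaks 1 to 5 kb away it was called at 2, 7, 2 and 1. At the 94 new sites it was called at 0, 2, 0 and 1. The intervals of these shares, 0 to 3.93%, 0.585 to 7.43%, 0 to 3.93% and 0.188 to 5.78%, held the shares over all gained peaks. Other H3K4me2 peaks were not split by distance in this way. The new sites with MM-401 WDR5 were on chromosome 6 (12003101 to 12003300) and chromosome 8 (102838676 to 102838925), 6200 and 46200 bp from control H3K4me2. The one with 4OHT WDR5 was on chromosome 4 (57860651 to 57860950), 7550 bp away. From the gained peaks the nearest WDR5 peak was a median of 24225 bp away in DMSO and 14125 bp under MM-401, and 11575 bp away in EtOH and 10725 bp under 4OHT. At the new sites these medians were 56363, 36763, 30125 and 24750 bp. The EtOH and 4OHT WDR5 lists were longer than the DMSO and MM-401 lists, and such distances were not measured from other H3K4me2 peaks.

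The control domains next to the gained peaks were examined for WDR5 in turn. There were 594 such domains, with a median width of 325 bp, against 300 bp for all 116336. MM-401 WDR5 was called at 14.8% of them (12.2 to 17.9%), against 10.3% of all domains (10.1 to 10.4%). DMSO WDR5 was called at 10.1% against 9.36%, EtOH WDR5 at 9.76% against 11.4%, and 4OHT WDR5 at 12.5% (10.0 to 15.4%) against 11.9%. Up to 500 bp, the class of 360 of the 594, all 4 WDR5 lists had higher shares at the neighbours than at all domains. MM-401 WDR5 was at 3.33% (1.92 to 5.74%) against 1.22%, and 4OHT WDR5 at 3.06% (1.71 to 5.39%) against 1.49%. DMSO WDR5 was at 1.67% (0.766 to 3.59%) against 0.856%, and EtOH WDR5 at 2.22% (1.13 to 4.32%) against 1.27%. In this class the DMSO and EtOH intervals held the share of all domains. Among domains over 500 and up to 1000 bp, DMSO WDR5 was called at 10.3% (5.08 to 19.8%) of the 68 neighbours and at 4.93% of all, and MM-401 WDR5 was called at 17.6% (10.4 to 28.4%) of the neighbours and at 6.31% of all. In that class EtOH WDR5 was lower at the neighbours, at 2.94% against 5.63%. There 4OHT WDR5 was higher at the neighbours, at 8.82% (4.11 to 17.9%), with the share of all inside the interval. Among domains over 2000 bp MM-401 WDR5 was called at 57.3% (46.1 to 67.9%) of the 75 neighbours and at 45.4% of all. The other lists had lower shares at the neighbours there. DMSO WDR5 was at 37.3% (27.3 to 48.6%) against 44.3%. EtOH and 4OHT WDR5 were each at 48% (37.1 to 59.1%), against 54.4% and 55.5%. For DMSO, EtOH and 4OHT the interval held the share of all domains of this width. Between 1 and 2 kb MM-401 WDR5 was called at 23.1% (15.6 to 32.7%) of the 91 neighbours and at 17.2% of all, a share inside the interval. 4OHT WDR5 was likewise at 23.1% (15.6 to 32.7%) of these neighbours, against 16.99% of all. DMSO WDR5 was at 20.9% (13.8 to 30.3%) against 14.5%. For 4OHT and DMSO too the interval held the share of all. EtOH WDR5 was again lower at these neighbours, at 13.2% against 16.7%. Over all widths the MM-401 share thus stood above that of all domains, and for DMSO, EtOH and 4OHT the interval of the neighbours held the share of all domains. Whether the lists differ in this was not tested.

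MLL1, the methyltransferase itself, was called at 13 gained peaks in all. DMSO MLL1 peaks lay over 5, or 0.644%, and MM-401 MLL1 peaks over 8, or 1.03%, with no gained peak in both. Over all 67346 peaks the shares were 5.59% and 12.9%. MLL1 was called in both lists at 1547 of the 50982 peaks in all 4 H3K4me2 lists, whose median width was 1150 bp against 250 bp. That count was 0 for the 2617 peaks called under MM-401 only and 0 for the 2556 lost peaks. It was not taken at equal width or over all H3K4me2 peaks. With 5 and 8 calls, the 0 at the gained peaks does not set them apart. The MM-401 MLL1 list was 3.21 times as long and came from another peak caller than the DMSO list, so the treatment and the caller cannot be told apart. At 200 to 300 bp the gained peaks and the peaks of all 4 lists had MLL1 at 0.366% and 0.619% in DMSO, and at 1.10% and 1.44% under MM-401, with intervals of the difference on both sides of 0. The widest gained peak with MM-401 MLL1 was 425 bp on chromosome 15 (59362951 to 59363375), 100 bp from EtOH H3K4me2. The others among the 5 widest were on chromosome 1 (196753901 to 196754250), 7500 bp from control H3K4me2, chromosome 6 (97406051 to 97406350), 25 bp away, chromosome 5 (135315551 to 135315825), 175 bp away, and chromosome 11 (87946351 to 87946600), adjacent to an EtOH peak.

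New sites carried MLL1 in 3 cases. DMSO MLL1 lay over 2 of them, on chromosome 1 (57831751 to 57832075) and chromosome 4 (105949251 to 105949825), which were 193350 and 16300 bp from any control H3K4me2. At these 2 places MLL1 was called in DMSO, where H3K4me2 was not, an absence that the rule sets for every gained peak. How often DMSO MLL1 peaks lie outside H3K4me2 was not counted. The DMSO MLL1 and H3K4me2 lists also came from different peak callers. MM-401 MLL1 lay over the site on chromosome 1 named above, 7500 bp from control H3K4me2. Both WDR5 and MLL1 were called at 1 gained peak, on chromosome 4 (140325251 to 140325450), with WDR5 under 4OHT and MLL1 in DMSO. No gained peak had MM-401 MLL1 together with WDR5 of any list. At 717 of the 777, or 92.3%, neither protein was called in any list. For these combinations of WDR5 and MLL1, the share over all H3K4me2 peaks or over peaks of equal width was not counted. Whether 92.3% is particular to the gained peaks is therefore not known.

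The gained peaks were spread over the genome. Their share of the MM-401 peaks of a chromosome ran from 0.680% on chromosome 17 (18 of 2649, 0.430 to 1.07%) to 1.59% on chromosome 18 (30 of 1889, 1.11 to 2.26%), around the share of 1.15% over all autosomes. In stretches of 100 kb, 669 held 1 gained peak, 48 held 2 and 4 held 3. The stretches with 3 were on chromosome 5 (from 30170926 to 30191250), chromosome 14 (104320401 to 104378900), chromosome 15 (63436401 to 63485875) and chromosome 18. On chromosome 5 the 3 peaks were 200, 200 and 225 bp wide and lay 150, 125 and 5000 bp from control H3K4me2. On chromosome 15 they were 350, 400 and 325 bp wide and lay 300, 0 and 25 bp from it. The next by position, among stretches with 2, was on chromosome 1 (99563676 to 99568625).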

How the data were processed

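Peaks were mapped by ChIP-seq in 14 samples, of which 4 inputs were not analysed here. The authors deposited each of the 10 lists as peak positions from 1 library, with no score, count or depth. Per the submitters' processing notes, reads were aligned with Bowtie to mm9. In 9 lists the peaks lay on a 25 bp grid and carried HPeak names, and were read as 1-based. The DMSO MLL1 list came from another caller, MACS in the study's methods, and its starts were read as 0-based. The thresholds of the HPeak lists are not given in the sources used here.

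Overlap of at least 1 bp was computed in Python 3.11.15 (numpy 2.4.6; matplotlib 3.10.9 for the plots). The gap is the number of bases between 2 peaks. Gained peaks within 1 kb of control H3K4me2 were separated from those at 1 to 5 kb and at 5 kb or more. Shares carry 95% Wilson intervals and differences 95% Newcombe intervals, which cover the counting of peaks and treat peaks as independent. The code was tested on simulated lists with 200 planted peaks, recovered 100%, and bedtools 2.31.1 gave the same 777. No test between conditions was run, for want of replicates.

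Peaks named by position are the 10 widest, the 5 farthest from control H3K4me2, the 5 widest with WDR5 in both treated lists (3 existed), the 5 widest with MLL1 under MM-401, the widest with WDR5 in a control list, and the 5 stretches of 100 kb with most gained peaks. New sites with WDR5 or MLL1 and the peak with both were named after their values were seen. The gained peaks, the comparison sets and all limits were chosen with earlier results of these data known. Planned counts by gene, promoter and base composition were not run, because the reference tables used here are in GRCm38 and the lists in mm9.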

Additional observations from a re-analysis of the deposited data

Results flagged for a closer look

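At gained peaks over 500 and up to 1000 bp the change in the number with WDR5 had opposite signs in the 2 experiments, with 3 more under MM-401 than in DMSO and a 4OHT minus EtOH difference of -2, among 44 peaks. At gained peaks 1 to 5 kb from control H3K4me2 the differences were 5 and -1, among 81 peaks. At the lost peaks they were 3 and -6, among 2556. Whether the 2 experiments differ was not tested, since each has 1 library per condition, and all these counts are small.

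On chromosomes X and Y, which the rule left out, 23 of 1642 MM-401 H3K4me2 peaks of at least 200 bp met the rest of the rule, or 1.40% (95% Wilson interval 0.935 to 2.09%). This interval holds the autosomal share of 1.15%.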

How the results depend on the processing

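The number of gained peaks, the shares within 1 kb and at new sites and the WDR5 and MLL1 shares were recomputed with 1 choice changed at a time, each under those of 15 alternatives that bear on it. The results on neighbouring domains, on the 4OHT partner peak and on differences between sets were not. Of 101 values, 56 stayed within the set limits and 45 moved. The treated to control ratio of gained peaks with WDR5 ran from 1.63 to 6 for MM-401 over DMSO and from 1.31 to 4 for 4OHT over EtOH, apart from a minimum width of 500 bp. There the counts were 5 against 0 and 1 against 4, so the second ratio fell below 1, at 0.25. Shares are given below in percent.

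With no minimum width there were 1939 gained peaks, 86.3 within 1 kb of control H3K4me2, 6.76 new sites and 1.70 with MM-401 WDR5. With a minimum of 500 bp there were 58, with 46.6 within 1 kb and 20.7 new sites, WDR5 at 0 for DMSO, 8.62 for MM-401, 6.90 for EtOH and 1.72 for 4OHT, and MLL1 at 1.72 in DMSO and 0 under MM-401. With at least 50% covered by 4OHT peaks there were 429, with 81.1 within 1 kb and 4.43 with 4OHT WDR5. With no control peak within 2 kb there were 141, with 1.42 for 4OHT WDR5 and 2.13 for DMSO MLL1. With the 4OHT peak as the unit, 85.1 lay within 1 kb, 7.51 were new sites and 1.97 had MM-401 WDR5.

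With absence required in DMSO alone there were 2677, with WDR5 at 1.98 in DMSO, 3.40 in EtOH and 4.45 under 4OHT. With absence required in EtOH alone there were 3103, with 55.5 within 1 kb of EtOH H3K4me2, 30.1 new sites, and WDR5 at 2.77 in DMSO and 1.90 in EtOH. With the H3K4me2 lists reduced to the length of the shortest by width, 70.5 lay within 1 kb and 16.4 were new sites. With peaks within 500 bp counted, WDR5 was at 3.86 for DMSO, 7.21 for MM-401, 4.38 for EtOH and 7.85 for 4OHT, and MLL1 at 1.54 and 3.35. A limit of 2 kb put 81.9 beside control H3K4me2, and a limit of 10 kb left 7.08 as new sites.

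Chosen after seeing the data, the WDR5 lists reduced to the shortest gave 1.42 for 4OHT. Keeping gained peaks whose 4OHT peak was free of control overlap left 504, with 65.3 within 1 kb and 18.7 new sites. Apart from the filters' own construction, the cause of these moves was not tested. Planned results on base composition, promoters and gene lists were not run. No paired analysis was possible because the labels give no replicate numbers and each condition has 1 library.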
